A study of Homo sapiens with 36 samples.

Results

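Accessible chromatin was examined around 9 genes of the circadian clock, PER1, PER2, PER3, CRY1, CRY2, BHLHE40, NR1D1, NR1D2 and CLOCK, in BT549 cells. A region belonged to one of them when its centre lay inside the gene or within 50 kb of either gene end. Peaks of all 36 libraries that overlapped by at least 1 bp were merged into regions, and 223 of 259704 regions met the rule. PER1 had 35 of them, NR1D1 had 28, NR1D2 and CLOCK had 26 each, CRY2 had 24, BHLHE40 had 22, PER2 and PER3 had 21 each, and CRY1 had 20. Of the 223 regions 44 had their centre inside a member gene and 179 outside it.

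BT549 is a triple-negative breast cancer cell line, labelled wild type in all 10 groups. In the first experiment cells carried siRNA against the transcription factor GATA6 for 72 h or control siRNA, and then received the synthetic glucocorticoid dexamethasone (DEX, 500 nM) or vehicle for 2 h, giving the groups siGATA6_DEX, siGATA6_Veh, siCtl_DEX and siCtl_Veh with 3 libraries each. In the second, cells received 10 µM BRM014, an inhibitor of the ATPases BRG1 (SMARCA4) and BRM (SMARCA2) of the SWI/SNF chromatin remodellers, or its solvent DMSO for 4 h; DEX, again at 500 nM and for 4 h, was added to some of either kind, giving DEX_BRM014, BRM014, DEX_DMSO and DMSO with 4 libraries each. In the third, siRNA against both ATPases (siBRG1_siBRM) was set against control siRNA (siCtl_only), with 4 libraries each; the length of this knockdown is not given in the sources used here. All groups are 1 cell line, and knockdown at the level of RNA or protein was not measured in these files. Regions are given in hg38 coordinates, and exons and introns were not annotated here.

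In the core clock of mammals CLOCK and its partner BMAL1 bind E-box sequences and activate the PER and CRY genes, whose proteins return to inhibit that pair. NR1D1 and NR1D2 encode the nuclear receptors REV-ERBα and REV-ERBβ, which repress BMAL1, and BHLHE40 encodes the repressor DEC1, which competes for E-boxes. Clock output also runs through D-boxes, the sites of PAR bZIP factors such as TEF and DBP. PER1 is known as a gene that glucocorticoids induce within hours through the glucocorticoid receptor, which binds pairs of the half-site TGTTCT.

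The start sites of 8 members held peaks in nearly every library. RefSeq windows of 300 bp, running from 250 bp before to 50 bp after a start (build GRCh38.p14), gave 12 windows for them, and 11 of the 12 overlapped a peak in all 36 libraries. The remaining window, at a second start of CLOCK, did so in 23. The start-site window of PER1 was not analysed here, and the peak lists used may be held only in part there, so counts and distances for PER1 refer to the regions analysed. The windows of PER2, PER3, CRY1, BHLHE40 and NR1D2 are shown as examples that hold clock elements under peaks that no treatment removed. The NR1D1 window and the CRY2 window with a match also do so and are not shown. Capitals mark each match, on either strand, to the E-box CACGTG, its variant CACGTT, the D-box TTATGNAA or the half-site TGTTCT, and no matches overlapped.
PER2, chr2:238288561-238288860, minus strand: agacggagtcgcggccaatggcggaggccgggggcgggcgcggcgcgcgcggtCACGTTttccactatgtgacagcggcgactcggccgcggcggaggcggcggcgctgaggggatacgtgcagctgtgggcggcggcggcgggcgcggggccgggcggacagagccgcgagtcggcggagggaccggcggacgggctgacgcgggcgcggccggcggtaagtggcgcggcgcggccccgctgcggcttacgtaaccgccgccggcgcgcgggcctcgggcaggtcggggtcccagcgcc
PER3, chr1:7784041-7784340, plus strand: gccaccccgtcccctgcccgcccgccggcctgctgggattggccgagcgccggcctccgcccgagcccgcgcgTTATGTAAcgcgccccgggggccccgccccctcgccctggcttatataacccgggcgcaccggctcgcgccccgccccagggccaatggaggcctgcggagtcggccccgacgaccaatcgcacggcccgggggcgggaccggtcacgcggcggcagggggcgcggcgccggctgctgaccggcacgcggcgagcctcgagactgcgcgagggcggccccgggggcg
CRY1, chr12:107093500-107093799, minus strand: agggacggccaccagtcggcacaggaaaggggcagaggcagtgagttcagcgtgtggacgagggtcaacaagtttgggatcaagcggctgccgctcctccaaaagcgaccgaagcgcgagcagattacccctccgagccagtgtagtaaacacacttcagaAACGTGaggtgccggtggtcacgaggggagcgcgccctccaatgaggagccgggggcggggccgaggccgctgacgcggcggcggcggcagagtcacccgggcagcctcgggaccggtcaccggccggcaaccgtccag
BHLHE40, chr3:4979187-4979486, plus strand: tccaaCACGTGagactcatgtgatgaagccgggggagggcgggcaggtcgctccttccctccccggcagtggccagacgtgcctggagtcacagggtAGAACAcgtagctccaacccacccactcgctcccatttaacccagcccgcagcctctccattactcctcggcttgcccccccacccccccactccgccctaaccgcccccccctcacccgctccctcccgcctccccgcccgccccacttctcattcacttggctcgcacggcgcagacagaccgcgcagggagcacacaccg
NR1D2, chr3:23945871-23946170, plus strand: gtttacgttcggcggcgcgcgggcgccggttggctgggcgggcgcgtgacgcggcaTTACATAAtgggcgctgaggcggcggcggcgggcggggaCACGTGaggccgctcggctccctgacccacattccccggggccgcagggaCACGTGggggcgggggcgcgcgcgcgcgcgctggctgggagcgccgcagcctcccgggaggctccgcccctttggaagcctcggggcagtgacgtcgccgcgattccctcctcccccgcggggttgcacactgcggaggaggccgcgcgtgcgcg

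The E-box lay at -245 from the start in BHLHE40, and at -155 and -105 in NR1D2. These were 2 of the 12 windows, and 7.22% of 34683 RefSeq promoter windows hold the motif. The variant CACGTT, or AACGTG on the other strand, stood in 5 of the 12 windows, at -197 in PER2, -89 in CRY1, -188 in CRY2, -168 in NR1D1 and -187 in the second window of CLOCK, against 5.35% of all windows. The D-box lay at -177 in PER3 and at -194 in NR1D2, in 2 of the 12 windows against 3.3% of all. The half-site stood in BHLHE40 at -153, against 14.8% of all windows. These are matches of letters and not measured binding.

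Regions near the clock genes were held by many libraries. Of the 223 regions 52 (23.3%) held a peak in all 36 libraries, against 9.23% of all regions, and 48 (21.5%) held one in a single library, against 33.6% of all regions. PER1 had 15 regions held throughout, PER2, CRY2 and NR1D1 had 6 each, CRY1 and BHLHE40 had 5 each, PER3 had 4, NR1D2 had 3 and CLOCK had 2. The median region near a clock gene was held by 14 libraries and was 163 bp wide, against 4 libraries and 148 bp over all regions. A region near a clock gene can belong to a neighbour. Within 50 kb lie ALOXE3, HES7, VAMP2, TMEM107 and BORCS6 for PER1; ILKAP, HES6 and TRAF3IP1 for PER2; CAMTA1, VAMP3 and UTS2 for PER3; TMEM263 and MTERF2 for CRY1. CRY2 has SLC35C1, MAPK8IP1, FREY1, PEX16, LARGE2 and PHF21A, NR1D1 has MED24, THRA, MSL1 and CASC3, NR1D2 has NKIRAS1 and RPL15, CLOCK has TMEM165, PDCL2 and NMU, and BHLHE40 has no protein-coding neighbour there.

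Libraries held 114113 to 131423 peaks in the GATA6 experiment, 41026 to 103956 in the BRM014 experiment and 37184 to 87609 in the ATPase experiment. Within the BRM014 experiment the 8 libraries with BRM014 held 41026 to 64198 peaks and the 8 without it 88348 to 103956. Within the ATPase experiment the siBRG1_siBRM libraries held 37184 to 66607 and the siCtl_only libraries 81639 to 87609. Total read depth is unknown; the lowest background level recovered from the peaks, a measure of relative depth, was 0.235 to 0.319 over the BRM014 experiment, 0.242 to 0.335 over the ATPase experiment and 0.492 to 0.677 over the GATA6 experiment. Peak counts are therefore compared within an experiment. Start sites of the mesenchymal markers VIM, CDH2, AXL and SPARC held a peak in all 36 libraries and that of ZEB1 in 32, while those of ESR1, PGR and CDH1, of the endothelial PECAM1 and CDH5 and of the leukocyte gene PTPRC held none. FOXA1 had one in 36 libraries, CD3E in 16 and GATA3 in 11.

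Single regions near 5 of the 9 genes were gained with DEX. A region is called gained when all libraries of the treated group and none of its control group had a peak in it, and lost when all control libraries and no treated one had. With DEX for 2 h in siCtl cells 4 of the 181 clock-gene regions tested were gained (2.21%), 1 each at PER2, PER3, NR1D1 and NR1D2, where 2.52% of all regions were. In siGATA6 cells 3 of 168 were gained (1.79%, against 2.36% of all), at PER3, NR1D1 and NR1D2. With DEX for 4 h in DMSO 3 of 156 were gained (1.92%, against 1.56% of all), at PER3, BHLHE40 and NR1D1. These shares were near those of all regions, so the number of gains is no result about the clock genes. Together they made 6 regions, of which 3 lay inside the genes, and 2 were gained in all 3 comparisons. Leaving out a library can only keep or add calls under this rule. Without siGATA6_Veh replicate 2 or siGATA6_DEX replicate 3 the count in siGATA6 was 5. The count at 4 h rested on weak peaks, since at a −log10 q of at least 5 it was 0. DEX losses were 1 region in siCtl (0.552%, against 0.817% of all), 0 in siGATA6 (0.595% of all) and 1 at 4 h in DMSO (0.641%, against 0.434% of all).

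The region gained in all 3 comparisons on the NR1D1 side lay at chr17:40075201-40075503, inside THRA, the thyroid hormone receptor gene next to NR1D1, and 25238 bp downstream of the NR1D1 start. Its fold enrichment, the authors' own value for the pileup at the summit over the local background, was 12.1, 11.6 and 13.8 in siCtl_DEX, with no peak in siCtl_Veh. It was 11.1, 12.0 and 10.2 in siGATA6_DEX, with no peak in siGATA6_Veh. At 4 h it was 5.39, 7.46, 8.04 and 7.34 in DEX_DMSO, with no peak in DMSO. The call itself sets the groups apart in these pairs. No library with BRM014 and none of the ATPase experiment held the region. A second region in THRA, at chr17:40071970-40072433, held a peak in all 4 DEX_DMSO libraries (fold 5.23 to 8.23) and in 1 DMSO library (5.52).

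On the PER3 side the region gained in all 3 comparisons lay at chr1:7849459-7849682, inside UTS2, the urotensin 2 gene, and 65279 bp downstream of the PER3 start. The fold was 10.1, 8.54 and 8.59 in siCtl_DEX, with no peak in siCtl_Veh, and 7.67, 9.72 and 9.56 in siGATA6_DEX, with no peak in siGATA6_Veh. It was 4.73, 4.18, 3.64 and 6.09 in DEX_DMSO, with no peak in DMSO, in DEX_BRM014 or in BRM014. At 4 h these were weak peaks, with a pileup of 5 to 8 at the summit. The pileup, the number of reads or fragments stacked at the summit, was worked back as a whole number from the fold and p of each peak. For all 3789 values used a whole pileup was found that gave the −log10 p within 0.002, a tolerance widened for larger −log10 p. These values are the peak of highest fold per region and library among the 4223 peaks of the 223 regions. A further region inside UTS2, chr1:7852914-7853093, held a peak in the 3 siCtl_Veh libraries (fold 4.44 to 5.45) and in no other library of the 36, and so counted as lost with DEX in siCtl and with siGATA6 in vehicle.

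NR1D2 had gains inside the gene and beyond it. The region at chr3:23959073-23959847, 14174 bp downstream of the start, had a fold of 11.6, 10.5 and 10.8 in siCtl_DEX and no peak in siCtl_Veh. In siGATA6_DEX the fold was 11.4, 9.46 and 12.4, and in siGATA6_Veh 2 of 3 libraries held it at 4.32 and 5.99, below every siGATA6_DEX value. The share of all regions whose folds separate in this way was not counted. In the BRM014 experiment 1 DEX_BRM014 library held this NR1D2 region at 5.47 and no BRM014 library did. In DEX_DMSO 3 libraries held it at 8.06, 5.06 and 8.45, and no DMSO library did. The DEX_BRM014 peak, chr3:23959143-23959237 with a pileup of 6, did not overlap the DEX_DMSO peaks, which began at 23959394 or beyond. Another NR1D2 region, at chr3:24012544-24012651, held a peak in 3 siGATA6_DEX, 2 siCtl_DEX and 3 DEX_DMSO libraries, at folds of 6.19 to 12.5, and in none of the other 28. Inside BHLHE40, at chr3:4984054-4984477, the fold was 2.82, 3.63, 4.57 and 4.36 in DEX_DMSO with no peak in DMSO. At 2 h that region was not called gained, since 2 of 3 siCtl_Veh and all siGATA6_Veh libraries also held it. Its fold there was 4.04, 4.44 and 4.42 in siCtl_DEX, against 3.35 and 3.00 in the siCtl_Veh libraries with a peak. In siGATA6_DEX it was 4.40, 5.28 and 4.52, against 3.18, 3.23 and 4.08 in siGATA6_Veh. The folds did not overlap in either pair, but the pileups did. Here too the share of all regions that separate in fold was not counted. Inside PER2, at chr2:238285841-238286036, the fold was 3.27, 3.77 and 4.89 in siCtl_DEX with no peak in siCtl_Veh, while 2 libraries each of siGATA6_DEX and siGATA6_Veh held it. In the plot of fold enrichment by library these regions stand beside the one upstream of PER1.

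**Figure D1:**
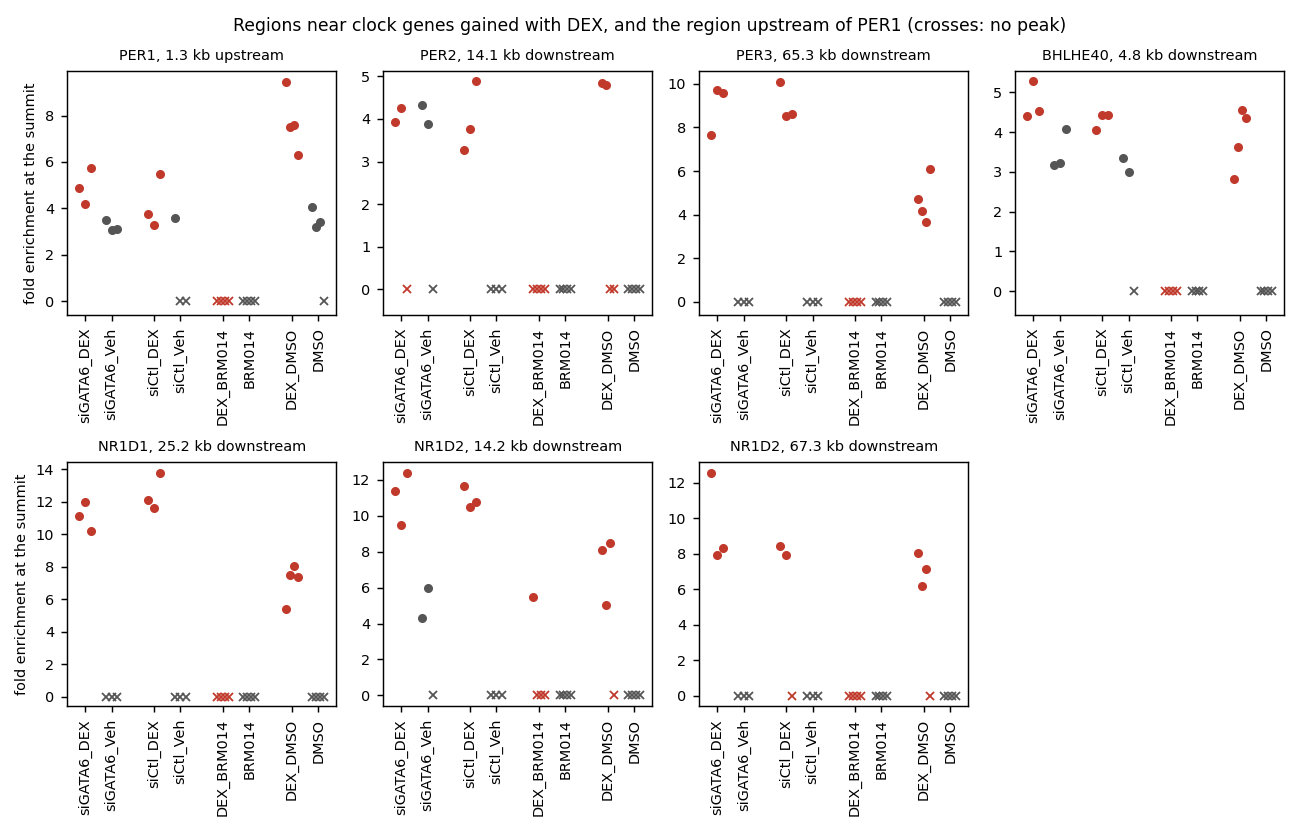
Fold enrichment at the summit (y axis, the authors' value) in each library of the GATA6 and BRM014 experiments for the 6 regions gained with DEX and the region 1296 bp upstream of PER1. Circles are libraries with a peak, red with DEX and grey without, and crosses placed at 0 are libraries with no peak. No BRM014 or DEX_BRM014 library held a peak except 1 DEX_BRM014 library at NR1D2, whose peak did not overlap those of DEX_DMSO.

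At PER1 the analysed region nearest the start, chr17:8153606-8153794, lay 1296 bp upstream and was higher with DEX in DMSO and in siGATA6 cells. Some libraries without DEX also held this region: 3 of 4 in DMSO, 3 of 3 in siGATA6_Veh and 1 of 3 in siCtl_Veh. After 4 h its fold was 9.46, 7.5, 7.57 and 6.29 in DEX_DMSO, against 4.08, 3.18 and 3.42 in 3 DMSO libraries and no peak in DMSO replicate 1. The pileup at the summit was 73, 55, 54 and 47 in DEX_DMSO, against 24, 17 and 21 in the DMSO libraries with a peak, so the groups did not overlap on either measure. The share of all regions that separate in this way was not counted. With siGATA6 after 2 h the pileup was 63, 61 and 84 in siGATA6_DEX, against 31, 30 and 32 in siGATA6_Veh, and the fold was 4.89, 4.18 and 5.72 against 3.48, 3.05 and 3.09. In control siRNA the pileup was 43, 45 and 81 in siCtl_DEX, against 39 in siCtl_Veh replicate 3 and no peak in the other 2, and there the folds overlapped (3.29 to 5.47 against 3.56). Because some libraries without DEX held a peak, the region was not called gained. When each library of an experiment was cut to the same number of best peaks it was gained with DEX at 4 h, the one clock-gene region that was, where 1.64% of all regions were.

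The PER1 upstream region had no peak in any of the 8 libraries with BRM014. Under the inhibitor DEX gained none of the 120 clock-gene regions tested, where 0.323% of all regions were gained, and lost none, where 0.155% were. With equal numbers of best peaks 2 were lost there, 1 each at PER1 and CRY1 (0.391% of all). With BRM014 in the presence of DEX the region was lost, being held by no DEX_BRM014 and all 4 DEX_DMSO libraries, and without DEX no BRM014 and 3 of 4 DMSO libraries held it. In the ATPase experiment no siBRG1_siBRM library held it and 3 of 4 siCtl_only libraries did, at folds of 4.14, 4.08 and 3.81. Whether the effect of DEX at this region differs with and without BRM014 was not tested, since a library without a peak gives no value.

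**Figure D2:**
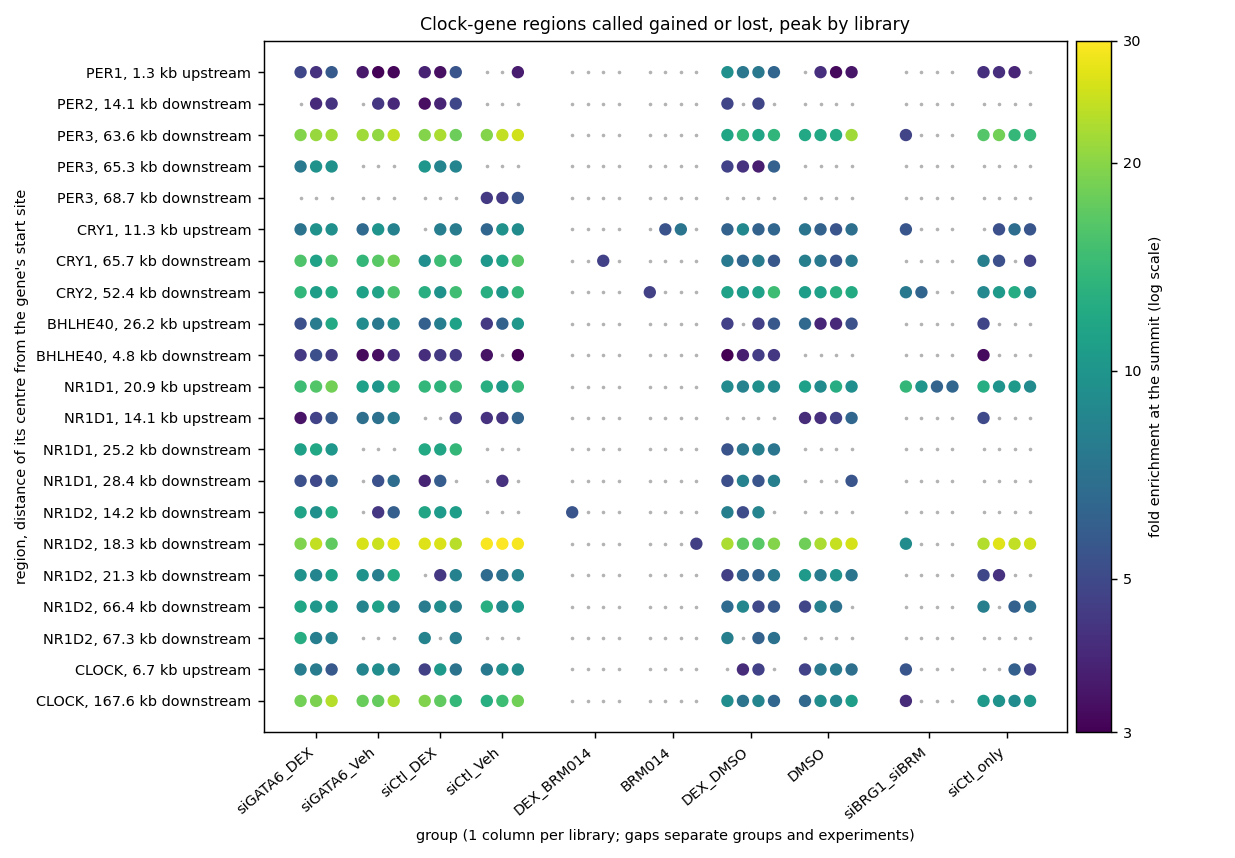
Each row is 1 of the 21 clock-gene regions called gained or lost, named by its gene and the distance of its centre from that gene's start, and each column is 1 of the 36 libraries in its group. A coloured circle marks a peak, with the fold enrichment on a log colour scale, and a small dot marks no peak; the columns of DEX_BRM014 and BRM014 hold peaks in 5 of the 21 rows.

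Few clock-gene regions were called with GATA6 knockdown. In vehicle 1 of 168 regions was lost (0.595%, against 0.806% of all), the one in UTS2 described above, and 0 were gained (0.459% of all). In DEX 0 of 178 were lost (0.71% of all) and 0 gained (0.677% of all). Leaving out siCtl_Veh replicate 1, siGATA6_Veh replicate 2 or siGATA6_Veh replicate 3 gave 2 losses in vehicle, and leaving out siCtl_DEX replicate 2, siCtl_DEX replicate 3 or siGATA6_DEX replicate 3 gave 1, 2 and 2 in DEX. The number of regions with a peak per gene was compared by exact permutation tests of group means over libraries, with Benjamini-Hochberg adjustment over all protein-coding genes. For siGATA6 the members' differences lay between -1.33 regions (CRY2, 12.8 ± 1.17 in siGATA6 against 14.2 ± 0.983 in siCtl; SD, n = 6 each; exact permutation p = 0.13, adjusted 1.0) and 1.33 (NR1D2, 15.0 ± 1.79 against 13.7 ± 1.63; exact permutation p = 0.14, adjusted 1.0). None of 19588 genes passed an adjusted p of 0.05 (0.0% fewer, 0.0% more), and 788 had an unadjusted p of at most 0.05. The smallest exact permutation p this test can give is 0.005.

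No change in the number of open regions per gene with DEX passed adjustment. At 2 h PER1 had 28.7 ± 1.37 regions with a peak in the DEX libraries and 26.2 ± 1.17 in the vehicle libraries (SD, n = 6 each; exact permutation p = 0.03, adjusted 0.301), and NR1D2 had 15.5 ± 1.38 and 13.2 ± 1.33 (exact permutation p = 0.02, adjusted 0.256). PER3 had 12.3 ± 1.21 and 10.5 ± 1.05 (exact permutation p = 0.05, adjusted 0.37). None of the 9 members, and none of 19588 genes (0.0% more, 0.0% fewer), passed after adjustment. An unadjusted p of at most 0.05 was found for 2644 genes. The smallest exact permutation p this 2 h test can give is 0.005. At 4 h in DMSO 8 members were higher with DEX and NR1D1 was equal, by at most 2.5 regions (NR1D2, 12.8 ± 1.71 in DEX_DMSO against 10.2 ± 1.26 in DMSO; n = 4 each; exact permutation p = 0.0857, adjusted 0.742). The median difference at 4 h was 0.75 regions over the members and 0.25 over all genes. None of 19528 genes passed there (0.0% more), with 964 at an unadjusted p of at most 0.05. Under BRM014 the members differed by at most 0.5 regions in either direction and none of 19181 genes passed (0.0% more), with 144 at an unadjusted p of at most 0.05. The smallest p these 4 against 4 tests can give is 0.0286. At such lowest values a gene passes adjustment over all genes only if very many others reach them too. The lack of passes therefore does not show that DEX changed nothing.

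Regions near 8 of the 9 clock genes, all but PER2, were lost with BRM014. Without DEX 8 of 141 clock-gene regions were lost (5.67%), where 11.3% of all regions were, and with DEX 13 of 155 (8.39%), where 11.6% of all were. None was gained in either setting, against 0.041% and 0.0761% of all regions. The shares were below those of all regions. In both comparisons 4 regions were lost, 1 each at PER3, NR1D1, NR1D2 and CLOCK. When libraries were cut to equal numbers of best peaks the losses were 2 (7.2% of all regions) and 5 (7.95% of all). At that setting the UTS2 region on the PER3 side and the CRY2 region in MAPK8IP1 were lost in both comparisons, and the NR1D2 region at chr3:23963432-23963836, the PER1 upstream region and 1 CRY1 region with DEX. Also at that setting 2 regions on the PER1 side were gained with BRM014 without DEX (1.7% of all).

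By fold enrichment the highest peak among the lost regions lay inside NR1D2, at chr3:23963432-23963836, 18348 bp downstream of the start. Its fold was 22.4, 16.9, 16.5 and 19.6 in DEX_DMSO, and no DEX_BRM014 library held a peak. Without DEX 1 BRM014 library held it at 4.61, with a pileup of 5, against 18.0, 22.4, 24.4 and 25.9 in DMSO, with pileups of 35 to 53. In the ATPase experiment 1 siBRG1_siBRM library held it at 9.12, against 22.9, 26.7, 24.001 and 25.4 in siCtl_only. With DEX the call itself sets the groups apart, and in the other pairs, where it was not called, the treated and control libraries did not overlap. A loss by at least 3 of 4 libraries, as in these pairs, was seen at 20.2% of all regions with BRM014 without DEX. With siBRG1_siBRM it was seen at 18.1% of all regions. A second region inside NR1D2, at chr3:23966379-23966759, was lost with and without DEX, with folds of 4.58 to 7.56 in DEX_DMSO and 7.32 to 10.4 in DMSO. The window at the NR1D2 start shown above lay in a region that all 36 libraries held. The highest peak of that region had folds of 13.99 to 16.6 in DEX_BRM014 and 11.8 to 16.5 in BRM014. The folds were 11.6 to 14.8 in DEX_DMSO and 13.5 to 15.1 in DMSO, so the groups overlapped. In DEX_DMSO replicate 2 the highest peak (11.6), at chr3:23946330-23946475, lay beyond the window.

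On the PER3 side the UTS2 region at chr1:7847647-7848062 held no peak in DEX_BRM014 or BRM014, against folds of 11.6 to 13.9 in DEX_DMSO and 11.9 to 21.5 in DMSO. On the CLOCK side chr4:55379112-55379487, beyond the far end of the gene, was lost likewise, with folds of 6.38 to 9.25 in DEX_DMSO and 6.45 to 10.7 in DMSO. Inside CRY1, chr12:107027671-107027962 held a peak in 1 DEX_BRM014 library (4.66) and no BRM014 library, against 5.58 to 7.76 in DEX_DMSO and 5.5 to 8.06 in DMSO. At CRY2 the region in MAPK8IP1, chr11:45899381-45899668, held a peak in no DEX_BRM014 library and in 1 BRM014 library (4.68), against 10.5 to 14.7 in DEX_DMSO and 10.7 to 12.9 in DMSO. Upstream of BHLHE40, chr3:4953030-4953453 was lost without DEX, with folds of 3.84 to 6.45 in DMSO; 3 of 4 DEX_DMSO and no DEX_BRM014 library held it. Lost regions on the NR1D1 side included chr17:40114463-40114921, held by all 4 DMSO libraries at folds of 3.97 to 6.43 and by no library of BRM014, DEX_BRM014 or DEX_DMSO, which makes it also the region lost with DEX at 4 h. The 3 regions gained with DEX at 4 h, at PER3, BHLHE40 and NR1D1, were all among those lost with BRM014 in DEX, and both calls use the same DEX_DMSO libraries. Also lost were the second THRA region, chr17:40071970-40072433, chr12:107104777-107104971 upstream of CRY1 and chr3:24011534-24011806 beyond NR1D2 with DEX, and chr4:55553461-55553752 upstream of CLOCK without it.

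A region at the start of MSL1 near NR1D1, chr17:40121265-40121732, was lost with the inhibitor, while every knockdown library held it. It held no peak in DEX_BRM014 or BRM014, against folds of 8.35 to 9.46 in DEX_DMSO and 9.02 to 12.6 in DMSO. All 4 siBRG1_siBRM libraries held it, at 13.8, 9.96, 6.24 and 6.41, against 12.5, 9.9, 10.3 and 9.0 in siCtl_only, which overlapped. It was the one of the 17 regions lost with BRM014 that all siBRG1_siBRM libraries held, and 15 of the 17 were held by 1 of those libraries or by none. Of the 17, 9 were held by at least 3 siCtl_only libraries, and 7 of those by 1 siBRG1_siBRM library or none. The inhibitor and the knockdown were used in separate experiments, and the difference between them was not tested.

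Counted per gene, BRM014 left fewer regions with a peak around 7 of the 9 members, where 68.8% of 19603 protein-coding genes had fewer and 0.0561% more, so the members' count is close to that of genes at large. NR1D2 had 4.75 ± 0.707 regions with a peak in the BRM014 libraries and 11.5 ± 1.93 in the DMSO libraries (SD, n = 8 each; adjusted exact permutation p = 0.00148, from an unadjusted 0.000408 that is the lowest which 4900 arrangements within the DEX levels can give). NR1D1 had 9.25 ± 0.886 and 15.0 ± 2.62 (adjusted exact permutation p = 0.00148) and CLOCK 5.38 ± 1.69 and 9.75 ± 1.83 (adjusted exact permutation p = 0.00387). CRY1 fell by 2.88 regions, PER3 and BHLHE40 by 2.62 each and CRY2 by 2.5, with adjusted exact permutation p of 0.00148 to 0.00803. PER1 had 21.5 ± 2.14 in the BRM014 libraries and 23 ± 1.77 in the DMSO libraries (adjusted exact permutation p = 0.213) and PER2 7.62 ± 1.06 and 8.5 ± 1.31 (adjusted exact permutation p = 0.304). The median over the members was -2.62 regions and over all genes -2.12.

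The direction of these counts depended on the scale, except at NR1D2. As a share of all regions a library held, NR1D2 still had less with BRM014, and PER1, PER2, PER3, CRY1, CRY2 and BHLHE40 had more, past the threshold, as did 45% of all genes, with 11.5% having less. With equal numbers of best peaks NR1D2 had fewer and PER1 more past the threshold (10.6% and 16.7% of all genes). The total number of peaks was itself lower with BRM014, and its part in the counts was not tested. NR1D2 had fewer in all 8 settings tried (difference -7.38 to -1.5 regions, adjusted exact permutation p at most 0.0197). With a distance of 10 kb BHLHE40 and NR1D1 did not pass.

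**Figure D3:**
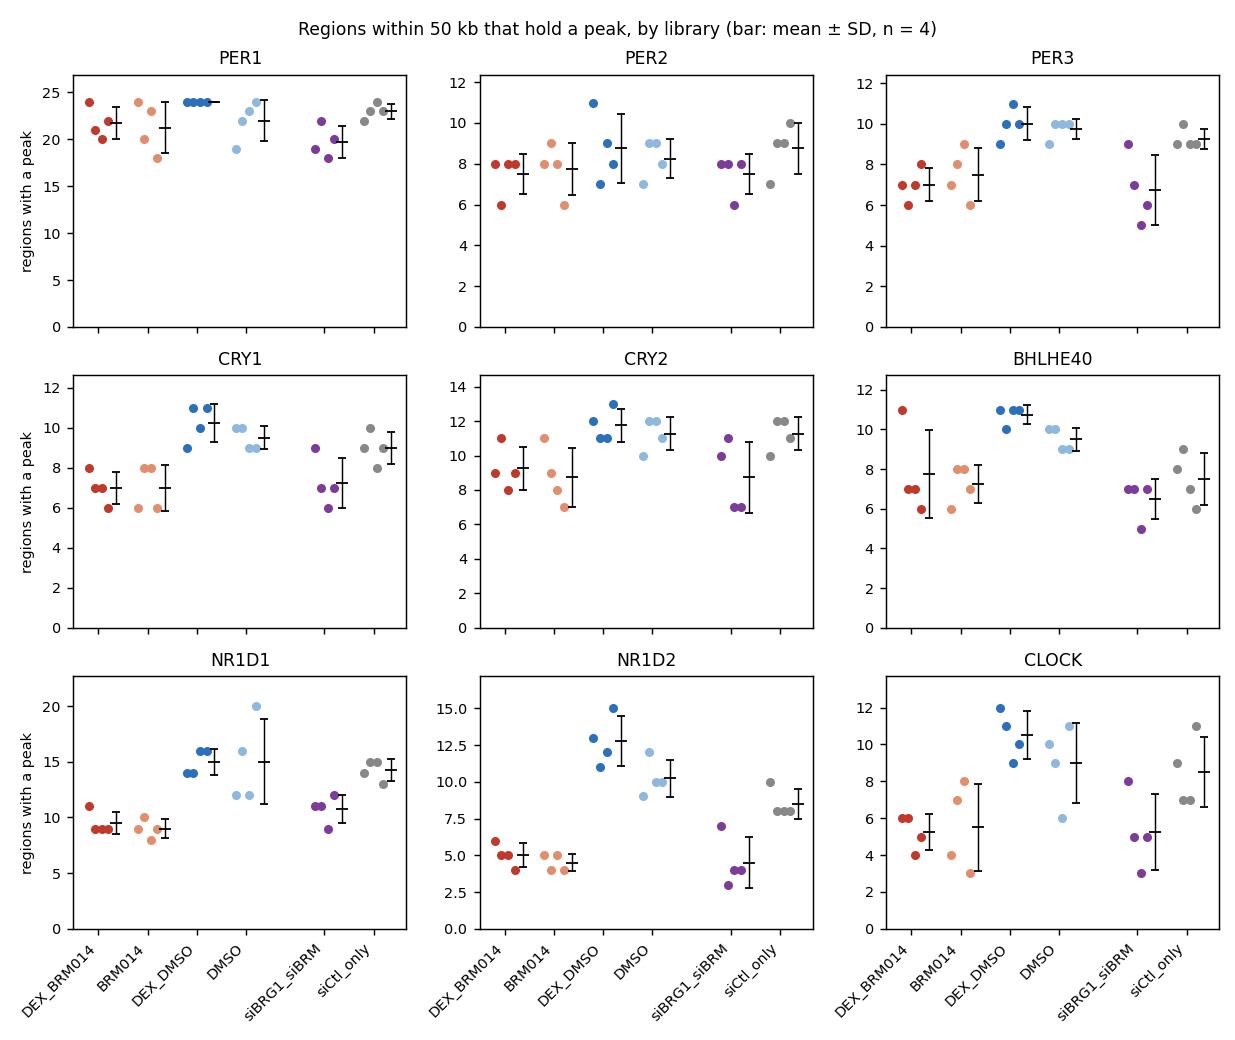
Number of regions within 50 kb of each gene that held a peak (y axis, from 0) in each library of the BRM014 and ATPase experiments, with the mean and SD of 4 libraries beside the points. NR1D2 had 4 to 6 regions in the 8 libraries with BRM014 and 9 to 15 in the 8 without, whereas PER1 had 18 to 24 and 19 to 24.

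Regions at start sites and regions elsewhere are given apart. Each gene counts here with 1 start site, its gene bound on the side where its strand begins. The region held by all 36 libraries at the PER2 window shown above is centred 11028 bp from that bound and counts as elsewhere. The region at the second CLOCK window, centred 1026 bp from the bound, does so too. Of the 55 clock-gene regions within 1 kb of a protein-coding start site, 59.1 ± 4.33% held a peak in DEX_BRM014 and 60.5 ± 1.74% in BRM014, against 69.5 ± 3.1% in DEX_DMSO and 66.4 ± 5.46% in DMSO (SD, n = 4 each). Of the 168 elsewhere, 28.3 ± 3.45% did in DEX_BRM014 and 26.9 ± 4.57% in BRM014, against 44.9 ± 1.85% in DEX_DMSO and 40.5 ± 2.92% in DMSO. Over all regions the shares were 49.0 ± 3.71% in BRM014 and 60.9 ± 1.62% in DMSO at start sites, and 16.2 ± 3.34% and 31.0 ± 1.8% elsewhere. Of the 8 clock-gene regions lost without DEX 1 lay at a start site, and of the 57 that all 4 DMSO and all 4 BRM014 libraries held 27 did. The lost ones had a median over regions of 8.17 for their DMSO fold and the kept ones 15.6, which overlapped (4.37 to 12.0 against 3.9 to 31.2). Height and position were not separated.

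**Figure D4:**
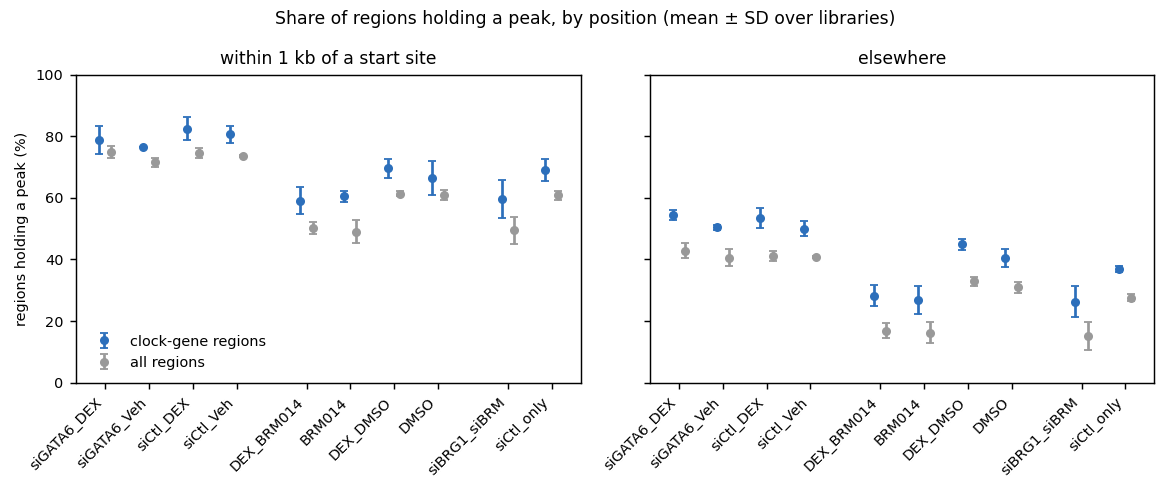
Percentage of regions holding a peak (y axis, mean and SD over the libraries of each group) for the 55 clock-gene regions within 1 kb of a protein-coding start site on the left and the 168 elsewhere on the right, with all regions of the same kind in grey. Away from start sites 26.9% were held in BRM014 and 40.5% in DMSO, and at start sites 60.5% and 66.4%. Each gene counts with 1 start site, taken from its gene bounds.

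After knockdown of both ATPases no clock-gene region of 130 was called lost, where 6.73% of all regions were, and none gained, where 0.0282% were. With 1 library left out the losses numbered up to 3: 3 without siCtl_only replicate 1 or siBRG1_siBRM replicate 1, 2 without siCtl_only replicate 2, and 1 without siCtl_only replicate 3, siCtl_only replicate 4 or siBRG1_siBRM replicate 2. At a −log10 q of at least 5 they numbered 2. By a looser rule, chosen after the values were seen, that asks for a difference of at least 3 of the 4 libraries (2 of 3 in the GATA6 experiment), 11 regions were lost (8.46%, against 18.1% of all) and 0 gained (0.175% of all). The lost ones included 3 at NR1D2 and 2 at PER1, with 1 each at PER2, PER3, CRY1, CRY2, NR1D1 and CLOCK. All 9 members had a lower mean number of regions with a peak, at a median difference of -2.5 regions against -2.0 over all genes. NR1D2 had 4.5 ± 1.73 regions in siBRG1_siBRM and 8.5 ± 1.0 in siCtl_only, and NR1D1 10.8 ± 1.26 and 14.2 ± 0.957 (4 libraries a group; adjusted exact permutation p = 0.0907 for both, at the lowest unadjusted p, 0.0286, of this design). PER1 had 19.8 ± 1.71 and 23 ± 0.816 (exact permutation p = 0.0571, adjusted 0.141). None of 19436 genes passed (0.0% fewer, 0.0% more), with 6125 at an unadjusted p of at most 0.05. As a share of the library's regions 1 of the 9 members was lower, where the median difference over all genes was 0.82. Within 1 kb of a start site 59.5 ± 6.19% of the clock-gene regions held a peak in siBRG1_siBRM and 69.1 ± 3.64% in siCtl_only, and elsewhere 26.3 ± 4.94% and 36.9 ± 1.09%.

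The looser rule gave more calls in the other comparisons, mostly at or below the share of all regions. With DEX it gained 11 clock-gene regions in siCtl (6.08%, against 6.69% of all), 8 in siGATA6 (4.76%, against 7.3%), 6 in DMSO (3.85%, against 3.78%) and 0 under BRM014 (1.55% of all). The 11 in siCtl included 3 at PER1, among them the upstream region. DEX losses by this rule numbered 4 in siCtl (2.21%, against 5.3%), 5 in siGATA6 (2.98%, against 3.92%), 1 in DMSO (0.641%, against 2.01%) and 0 under BRM014 (1.08% of all). With siGATA6 4 were lost in vehicle (2.38%, against 4.53%) and 5 in DEX (2.81%, against 3.73%), and 7 gained in vehicle (4.17%, against 3.76%) and 7 in DEX (3.93%, against 5.01%). BRM014 lost 20 without DEX (14.2%, against 20.2%) and 23 with DEX (14.8%, against 20.5%), of which NR1D2 had 5 and 6, more than any other member. BRM014 gained 1 without DEX, at PER1 (0.709%, against 0.306%), and 0 with DEX (0.402% of all).

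Other genes of the clock, a list of 24 with the partners, D-box factors, kinases and ubiquitin ligases of the system, also had called regions. DEX gained 13 of 455 regions tested in siCtl (2.86%, against 2.52% of all), 14 of 447 in siGATA6 (3.13%, against 2.36%), 15 of 404 after 4 h in DMSO (3.71%, against 1.56%) and 3 of 267 under BRM014 (1.12%, against 0.323%). They lay at 8, 9, 8 and 2 of the 24 genes, and no test was made of these shares. CSNK1A1, a casein kinase 1 gene, had 3, 3 and 4 gained regions in the first 3 of these comparisons, of which chr5:149596685-149597114 and chr5:149600839-149601288 were held by every siCtl_DEX, siGATA6_DEX and DEX_DMSO library and by none of the other 26 libraries. TEF, a D-box activator, had 2, 3 and 3, with chr22:41355054-41355345 and chr22:41411542-41411857 gained in each. BMAL1, the partner of CLOCK, had 2 gained regions at 2 h in siCtl, USP2, a deubiquitinase gene, had 2 in each of the same 3 comparisons, and CIPC, an inhibitor of CLOCK, had 2 at 4 h. Under BRM014 the DEX gains were 2 at CSNK1A1 and 1 at USP2. Of these, chr5:149562513-149563148 at CSNK1A1 and chr11:119417061-119418113 at USP2 were also held without DEX, by all 4 DMSO libraries and all 3 siCtl_Veh libraries. The other, chr5:149489676-149490079 at CSNK1A1, was held by no DMSO library but by 2 siCtl_Veh libraries. DEX lost 1 region each in siCtl (FBXW11, a ubiquitin ligase gene) and in siGATA6 (the pseudogene FBXL21P).

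BRM014 lost 36 of 350 regions, at 14 of the 24 genes, without DEX (10.3%, against 11.3% of all) and 41 of 381, at 16 genes, with DEX (10.8%, against 11.6%). The counts without DEX were led by CSNK1A1 and NFIL3, a D-box repressor, with 5 each, and CSNK1D, a kinase of PER proteins, and USP2 with 4 each, and those with DEX by CSNK1A1 with 8, CSNK1D with 5 and NFIL3 with 4. After siBRG1_siBRM 20 of 309 regions were lost (6.47%, against 6.73% of all) at 13 genes, 4 at CSNK1D, 3 at BMAL1 and 2 each at CSNK1A1 and FBXW11. GATA6 knockdown lost 1 region at DBP in vehicle and 1 each at FBXL21P and NFIL3 in DEX, and gained 1 at FBXW11 in vehicle and 1 at BHLHE41 in DEX. Of the 23 protein-coding genes 19 had fewer regions with a peak with BRM014 and none had more, where 68.8% of all genes had fewer and 0.0561% more, at a median difference of -3.62 regions against -2.12 over all genes; in the other 5 tests none passed.

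The genes whose number of regions with a peak followed that of PER1 most closely, by Pearson's r over the 36 libraries after subtracting each experiment's mean, were H4C8, H2BC10 and H3C8 (r = 0.769 each), JAKMIP2 (0.768) and MBD3 (0.729), among 18474 genes. The histone genes lie in 1 cluster and share regions. Of the other members CRY2 ranked 1157 (0.569), PER3 1431 (0.556) and CRY1 15679 (0.201). All these counts come from the same libraries and so share their depth and number of peaks.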

How the data were processed

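ATAC-seq peak lists of 36 BT549 libraries were used. The authors deposited for each peak a fold enrichment, the ratio of summit pileup to local background, and −log10 p and −log10 q values; per the submitters' processing notes MACS2, SAMtools, HOMER and bcl2fastq were used with build GRCh38 (hg38). The lists are per library, not pooled. The sources used here do not name the aligner, read shifting or duplicate handling. Groups came from the titles, which number biological replicates.

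From these lists, peaks on chromosomes 1 to 22 and X of all libraries were merged into regions at an overlap of at least 1 bp. Gene bounds came from a RefSeq table (GRCh38.p14) and strands from its promoter table. Distances of regions from a start, and the split by start site, use 1 start per gene, its bound on the side where its strand begins. The 300 bp promoter windows can have other starts. Region calls have no test, and the share called over all regions is given beside them. Gene counts were compared by two-sided exact permutation tests in 6 comparisons, with Benjamini-Hochberg adjustment over all protein-coding genes at a threshold of 0.05 (Python 3.11.15, NumPy 2.4.6, pandas 2.3.3, SciPy 1.17.1), and the scripts were checked on simulated data. P-values measure the spread between libraries. Summit pileup and background were recovered from fold and p by the Poisson tail, trying whole pileups only (tolerance 0.002 on −log10 p, wider for larger values). The 3000 weakest peaks per library gave the background level.

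Members, the list of other clock genes and the markers were chosen with earlier results of these data known. Named are the 9 members with their called regions, up to 3 other clock genes per comparison and direction with most called regions, and the 5 genes most like PER1; a few further regions were named after their values were seen. No 2 libraries held the same regions. Alternatives were a stricter q, equal numbers of best peaks, other merging, a 10 kb distance, shares in place of counts, a replicate block and leaving out each library.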

Additional observations from a re-analysis of the deposited data

Results flagged for a closer look

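In 8 of 54 sets of 4 libraries, each 1 gene in 1 group, 1 library stood far from the other 3 in its number of regions with a peak; for continuous values chance flags about 1 in 20 such sets, and the rate for small whole numbers with ties was not computed. PER2 had 6 regions in DEX_BRM014 replicate 2 and 6 in siBRG1_siBRM replicate 3, against 8 in the other libraries of each group. BHLHE40 had 5 in siBRG1_siBRM replicate 3, against 7, and 10 in DEX_DMSO replicate 2, against 11. NR1D1 had 11 in DEX_BRM014 replicate 1, against 9. PER3 had 9 in DMSO replicate 1, against 10, and 10 in siCtl_only replicate 2, against 9. NR1D2 had 10 in siCtl_only replicate 1, against 8. All 8 gaps are 1 or 2 regions.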

How the results depend on the processing

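Merging within each experiment changed no count of called clock-gene regions by over 1.5 times. At a −log10 q of at least 5 the gains with DEX at 4 h numbered 0, the losses with siGATA6 in vehicle 0 and those with siBRG1_siBRM 2. With equal numbers of best peaks the gains at 4 h numbered 1, the losses with BRM014 2 without and 5 with DEX, and those with siBRG1_siBRM 1; joining peaks at an overlap of at least 100 bp gave 1 loss with siBRG1_siBRM. The looser rule, chosen after seeing the data (a difference of all but 1 library), gave 11, 8 and 6 gains with DEX in siCtl, siGATA6 and DMSO, 4 and 5 losses with siGATA6 in vehicle and DEX, 20 and 23 with BRM014, and 11 with siBRG1_siBRM. Leaving out 1 library gave 4 to 6 gains with DEX in siCtl, 3 to 5 in siGATA6 and 3 to 4 in DMSO, 0 under BRM014, 1 to 2 and 0 to 2 losses with siGATA6, 9 to 11 and 13 to 16 with BRM014, and 0 to 3 with siBRG1_siBRM. These counts of calls cannot fall below those of all libraries, since the rule can only keep or add calls with fewer libraries. The count of members with fewer regions under BRM014 stayed at 7 without any 1 library, and was 1 with equal numbers of best peaks and 1 as a share of the library's regions. Differences that turned to more with BRM014 were, with equal numbers of best peaks, PER1 3.5, BHLHE40 1.38, CLOCK 1.0, NR1D1 0.875 and CRY2 0.125 regions, and as a share, scaled to the mean total of the 16 libraries, PER1 12.2, PER2 4.07, CRY2 3.66, BHLHE40 2.52, PER3 2.44, CRY1 2.03 and NR1D1 1.35. These settings hold the library's total fixed by construction. Same-numbered libraries were not treated as pairs in the main tests. With 3 or 4 pairs a comparison, correlations of deviations ran from -0.133 to 0.221, and no comparison had every pair over 0.1. They were all positive within the GATA6 experiment (0.0187 to 0.179) and with siBRG1_siBRM (0.0398 to 0.175). With siGATA6 in DEX all 3 tested libraries correlated best with their own number, and with siBRG1_siBRM 3 of 4 did. In the other comparisons of the GATA6 experiment 2 of 3 did, and in those of the BRM014 experiment 1 or 2 of 4. Whether the libraries pair was not tested. With a replicate block the members with fewer regions under BRM014 numbered 7 and those in the other tests 0. Depth limits the reading of a missing peak, which is a signal under the caller's threshold and not an absence of access.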
